A study of Homo sapiens with 2 samples.

Results

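Metallothioneins are described here in cells of RMG1, a cell line from an ovarian clear cell carcinoma, by comparing cells with high aldehyde dehydrogenase activity (ALDH+) with cells with low activity (ALDH-). The members were 10 genes, the metallothioneins MT1A, MT1B, MT1E, MT1F, MT1G, MT1H, MT1M, MT1X and MT2A and their transcription factor MTF1. They were chosen with earlier results of these data known. Their probes were found by gene name on the array, a step that did not use any measured value. They had 12 of the 34127 gene probes, with 2 probes each for MT1H and MT1X and 1 for each other gene. The array carried 27267 differently named genes or transcripts in all, and 13720 of them were measured. A probe was called detected in a population where the array software flagged it as well above background, and a gene was measured if 1 of its probes was detected on both arrays in at least 1 population.

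Both populations were sorted from 1 cell line by the ALDEFLUOR assay, in which living cells convert a dye substrate by aldehyde dehydrogenase, and neither was treated otherwise. The methods used the inhibitor DEAB as a negative control of the assay. They name AMOC2 as the source of the RNA, whereas the sample labels and the paper's results name RMG1, the name used here. Total RNA of 1 extract of each population was hybridized together to 2 two-color arrays, with ALDH+ cells in Cy5 on array 1 and in Cy3 on array 2. The 2 arrays carried the same pair of extracts and were counted as 1 replicate, so no test was possible and each SD below is the technical spread of the 2 arrays. All 8 epithelial and clear cell markers examined were measured, with a median log2 ratio of ALDH+ over ALDH- cells of 0.02 and a highest of 0.30. PAX8, a transcription factor of the Müllerian lineage, was 1.67-fold lower in ALDH+ cells, at -0.83 on array 1 and -0.64 on array 2, and was within 1.5-fold with median centring. None of 6 fibroblast markers was measured, and 4 of 9 leukocyte markers were, with log2 ratios between -0.15 and 0.45. In bulk RNA, fewer cells that express a gene and less RNA per cell cannot be told apart.

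Metallothioneins are very small proteins in which many of the residues are cysteines, whose thiol groups hold zinc and copper and can also hold cadmium. The functional human genes of the MT1 and MT2 classes lie side by side on the long arm of chromosome 16 and arose by duplication, so their transcripts are similar over long stretches. Their transcription rises when free zinc rises, through MTF1, a zinc finger protein that binds short metal response elements in their promoters, and also responds to glucocorticoids and oxidants.

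Because a probe that matches several transcripts reports them together, the probes themselves are needed to read the values. The sequences shown are those of the array file, with positions on hg19 as that file gives them. Each probe is 60 bases long. A first set of probes lay in the coding sequence, where the frame is crowded with cysteine codons, shown in capitals. The MT1A probe read 8 cysteines in 20 codons, the coding probe of MT1H 8 in 19 and the coding probe of MT1X 7 in 20.
MT1A, chr16:56673205-56673808, plus strand, over an exon junction: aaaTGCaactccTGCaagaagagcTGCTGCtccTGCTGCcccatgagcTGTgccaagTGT
MT1H, chr16:56704448-56704833, plus strand, over an exon junction: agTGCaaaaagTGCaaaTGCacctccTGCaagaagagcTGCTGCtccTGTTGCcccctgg
MT1X, chr16:56717082-56717141, plus strand: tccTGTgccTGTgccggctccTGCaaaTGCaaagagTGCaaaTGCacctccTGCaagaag

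These coding probes overlapped each other most. The MT1A probe and the MT1H coding probe shared an exact run of 27 bases, and the MT1X coding probe shared 26 with the latter. The array file itself listed a transcript of MT1M for the MT1A probe and one of MT1B for the MT1X coding probe. A second set ran over the end of the coding sequence, and is shown up to the stop codon, in capitals, to make the similarity of that end visible.
MT1B, chr16:56686948-56687007, plus strand: tcatcagagaagtgccgctgctgtgccTGA
MT1E, chr16:56660853-56660912, plus strand: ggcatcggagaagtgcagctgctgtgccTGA

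The MT1B probe shared a run of 17 bases with the MT1E probe. The MT1E probe shared one of 19 bases with the probe of MT1L, which is outside the list and whose transcript is listed as non-coding. The remaining member probes lay neither in a frame rich in cysteine codons nor across the end of the coding sequence in such a frame. Their first 30 bases are given because these are the probes on which the members differed, and capitals mark bases in an exact run of 12 or more shared with the probe of another metallothionein gene.
MT1F, chr16:56693077-56693136, plus strand: tgccaggacaacctTTCTCCCAGATGTAAA
MT1X, chr16:56717962-56718021, plus strand: tgccaggacagctgtgctctcagatgtaaa
MT1H, chr16:56704902-56704961, plus strand: tgtcgggacagccctgctgtcagatgaaaa
MT1M, chr16:56667810-56667869, plus strand: ttttttcaatacgatactgagccatttgct
MT1G, chr16:56700693-56700752, minus strand: cccgtaaaatctaggattttttgttttttg
MT2A, chr16:56643332-56643391, plus strand: caaccctgaccgtgaccgtttgctatattc
MTF1, chr1:38275414-38275473, minus strand: gttacaggttcagtacttccaaaggaagaa

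The first of these probes, those of MT1F, MT1X and MT1H, came from matching places of the 3 transcripts. Over all 60 bases the MT1F and MT1X probes were identical at 49, or 81.7%, and the second MT1H probe matched the MT1F probe at 46. The probes of MT1M, MT1G and MT2A held stop codons in all 3 frames. Their longest runs shared with the probe of any other gene of the family or of MTF1 were 8 bases for MT1M and 10 bases each for MT1G and MT2A. Probes were compared only with other probes and not with whole transcripts, so a short run does not show that a probe reads 1 gene alone.

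The metallothioneins did not move as 1 block. MT1M was 2.11-fold lower in ALDH+ cells, MT1F was 1.46-fold lower and MT1G was lower on both arrays at a level near background, while MT1A, MT1B, MT1E, MT1H and MT1X each had a mean log2 ratio within 0.1 of zero. MT2A had a mean log2 ratio of -0.17 with the arrays on opposite sides of zero. MTF1 was 1.60-fold lower in ALDH+ cells. The mean ratios of MT1M, MT1G, MT1F and MTF1 over both arrays were negative under every way of processing that was run, and on each array alone with loess, whereas each of the other members turned sign under at least 1 of these.

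**Figure D1:**
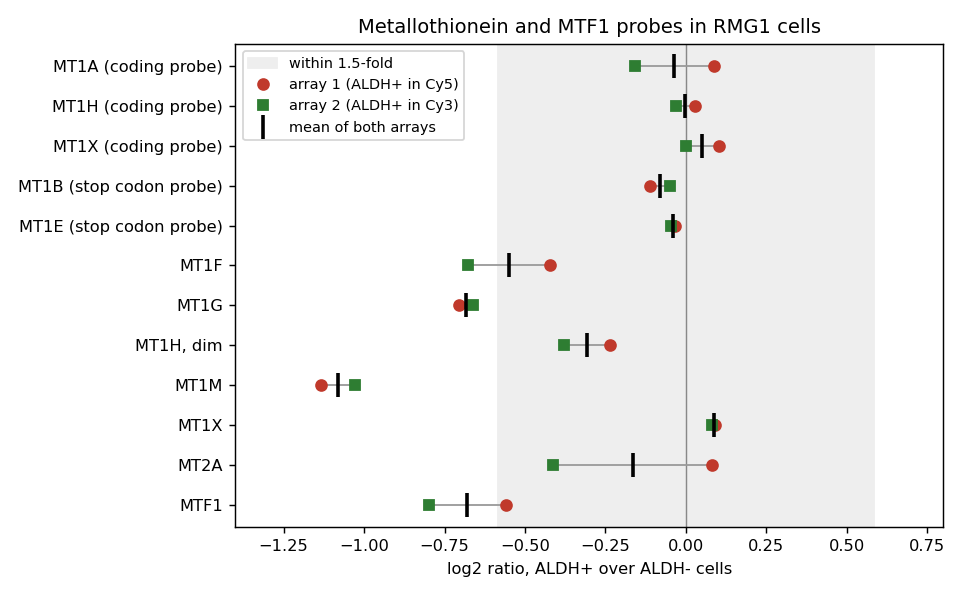
Log2 ratio of ALDH+ over ALDH- cells for the 12 member probes, with the value of each array as a point, their mean as a tick and a gray band for less than 1.5-fold. The coding and stop codon probes lie close to 0, MT1M lies near -1.08, and the 2 arrays of MT2A stand far apart.

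Past 1.5-fold, MT1G and MT1M, that is 2 of the 9 metallothioneins, were lower in ALDH+ cells and 0 were higher. Over all 13720 measured genes, 630 were lower by that measure, which is 4.59%, and 207 were higher, which is 1.51%, so that 6.1% passed in either direction. With 9 genes whose probes overlap in sequence, the share of the family is a description only. MT1G was counted as measured only through ALDH- cells, where it was higher, since in ALDH+ cells it was detected on 1 array. With detection required in both populations, the count of metallothioneins past 1.5-fold was 1. MT1M was also the 1 member past 2-fold, a distance that 0.707% of all measured genes reached in that direction and 0.211% in the other. The median over the 9 metallothioneins was -0.08 on the log2 scale, against -0.00 for all measured genes, and it was -0.03 on array 1 and -0.16 on array 2. The median turned to 0.26 when arrays were centred on their medians with no loess.

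MT1M, an isoform of the MT1 class, had the lowest mean ratio of the measured members with loess, although the dim MT1G probe was lower in the array software's ratio, at -1.82 against -1.19. On the normalized log2 intensity scale, its level in ALDH+ cells was 9.25 on array 1 and 9.34 on array 2, and its level in ALDH- cells was 10.38 and 10.37. The levels of the populations did not overlap. Both arrays carried the same extracts, so overlap of levels, here and below, describes technical spread only. How many of all measured genes had levels without overlap was not counted. The log2 ratios of -1.13 and -1.03 had a mean of -1.08 with a technical SD of 0.07. In all, 66 of the 13720 measured genes had a lower mean ratio. The probe was detected in each population on each array. Its unprocessed signals were 867 for ALDH+ and 1037 for ALDH- cells on array 1, and 537 and 1680 on array 2. The value rests on this 1 probe. The MT1A probe, for which the array file also listed a transcript of MT1M, had a mean log2 ratio of -0.04.

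MT1G, another MT1 isoform, was lower on both arrays but close to background. Its normalized log2 level was 6.52 and 6.66 in ALDH+ cells and 7.22 and 7.32 in ALDH- cells, so that the populations did not overlap. The log2 ratios were -0.71 and -0.66, with a mean of -0.68 and a technical SD of 0.03. In ALDH+ cells the probe was detected on 1 of the 2 arrays. The unprocessed signal of ALDH+ cells on array 2 was 147, in Cy3, where the negative control spots had a median of 127.2. The size of the difference moved with the handling of background, and the mean log2 ratio lay between -0.55 without background correction and -1.82 in the array software's own ratio.

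MT1F had a normalized log2 level of 12.74 and 12.55 in ALDH+ cells and of 13.16 and 13.22 in ALDH- cells. The populations did not overlap, with log2 ratios of -0.42 and -0.68, a mean of -0.55 and a technical SD of 0.18. The gene lay just inside 1.5-fold, and passed it on array 2 alone. Of the measured members with a shared run of 12 or more bases, it had the lowest ratio. The MT1F probe had 36 of its 60 bases in such runs, the longest of 19 bases with the MT1L probe. Shared sequence thus limits this value too.

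MT1X, whose second probe is the close relative of the MT1F probe shown above, gave a different value from it. Its log2 ratio at that probe was 0.09 on array 1 and 0.08 on array 2, a mean of 0.09 with an SD of 0.01. At the coding probe it was 0.10 and -0.00, with a mean of 0.05. Both probes thus gave MT1X a ratio within 0.1 of zero, one of them from sequence that is less shared. The third probe of that related group, the second MT1H probe, was detected on neither array in ALDH+ cells and on 1 array in ALDH- cells. No fold is given for it.

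The probes in coding sequence or across the stop codon gave a narrow range. The normalized log2 level of the MT1A probe was 14.49 and 14.25 in ALDH+ cells and 14.40 and 14.41 in ALDH- cells, and the populations overlapped. Its log2 ratios were 0.09 and -0.16. The coding probe of MT1H had levels of 13.39 and 13.34 in ALDH+ cells and 13.36 and 13.37 in ALDH- cells, again with overlap, and log2 ratios of 0.03 and -0.03. The stop codon probes of MT1B and MT1E had log2 ratios of -0.11 and -0.05, and of -0.03 and -0.05. The 5 probes of these kinds, 1 for each of 5 genes, had mean log2 ratios from -0.08 to 0.05. The other 5 measured probes, for 5 genes, spread from -1.08 to 0.09 with a median of -0.55. MT1L, which is no member and whose transcript is listed as non-coding, gave -0.03 and 0.03 at a probe over the matching stop codon. A ratio near zero at a shared probe does not give the ratio of any single gene, since the share of each transcript in that signal was not tested.

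MT2A, the widely expressed isoform of the MT2 class, had the arrays in disagreement. Its normalized log2 level was 16 and 15.74 in ALDH+ cells and 15.92 and 16.15 in ALDH- cells, so that the populations overlapped. The log2 ratio was 0.08 on array 1 and -0.41 on array 2, and the technical SD of 0.35 was near the 95th percentile of 0.37 over all measured genes, whose median SD was 0.11. No spot of these probes was saturated, although the unprocessed Cy5 signals of MT2A reached 118632 in ALDH+ cells on array 1 and 98280 in ALDH- cells on array 2. The direction of MT2A was thus not settled by these arrays.

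**Figure D2:**
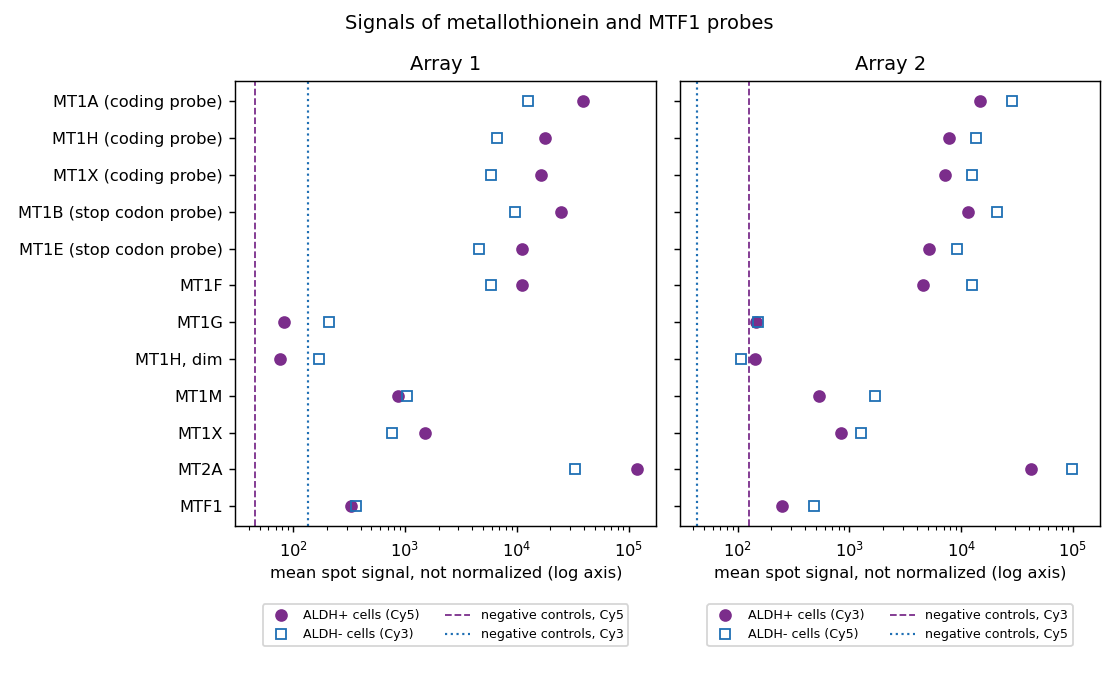
Unprocessed mean spot signal of each member probe in ALDH+ and ALDH- cells on a log axis, 1 panel for each array, with vertical lines at the median signal of the negative control spots in each dye. The population in Cy5 gave the higher signal for most bright probes on both arrays, whereas MT1G and the second MT1H probe lie near the negative controls.

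Of the family genes that are no members, MT3, an isoform best known from brain, had log2 ratios of 0.01 and -0.41, the same disagreement between arrays as MT2A. MT4 and the pseudogene MT1DP were detected in neither population. The pseudogene MT1IP was detected in ALDH- cells on 1 array and in ALDH+ cells on neither, and no fold is given for it.

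MTF1 encodes the zinc-sensing activator of these genes. Its normalized log2 level was 8.03 and 7.90 in ALDH+ cells and 8.59 and 8.69 in ALDH- cells. The populations did not overlap, with log2 ratios of -0.56 and -0.80, a mean of -0.68 and a technical SD of 0.17. Array 1 alone put it inside 1.5-fold. In all, 426 of the measured genes had a lower mean ratio.

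Metal response elements were searched for in the 250 bases before the start of transcription, as TGCACNC or TGCGCNC on either strand, with overlapping matches counted. The RefSeq promoter table of GRCh38.p14 had an entry for 5 of the 10 members, and the first listed start of each gene was used. The MT1H promoter held 8 matches, the MT2A promoter 7, the MT1X promoter 4, the MT1B promoter 3 and the MTF1 promoter 0. Of all 27305 promoters searched in the same way, 24.7% held at least 1 match, 1.56% held at least 3 and 0.121% held at least 5. In MT4, a family gene outside the list, the matches began 209, 196 and 90 bases before the start, with none near 53. The MT2A promoter is shown, with the matches in capitals. Its match nearest to 53 bases before the start has a counterpart in MT1B, MT1H and MT1X.
MT2A, chr16:56608334-56608583, plus strand, GRCh38.p14: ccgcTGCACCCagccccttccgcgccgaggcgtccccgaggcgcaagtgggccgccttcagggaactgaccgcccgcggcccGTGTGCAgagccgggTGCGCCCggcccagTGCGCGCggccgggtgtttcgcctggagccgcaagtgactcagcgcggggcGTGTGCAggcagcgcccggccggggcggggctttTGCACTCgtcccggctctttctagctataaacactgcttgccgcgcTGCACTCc

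A match on the gene's own strand began 53 bases before the start in MT1B, MT1H and MT1X and 54 bases before it in MT2A. A match on the opposite strand began 79 bases before the start in MT1B, 78 in MT1H and MT1X, and 88 in MT2A. MT1B, MT1H, MT1X and MT2A, the members whose promoters held matches, had log2 ratios between -0.17 and 0.05. MT1M, MT1G and MT1F, the metallothioneins with the lowest ratios, were among the members not covered by the table, so the promoters of the 2 kinds of member were not compared.

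**Figure D3:**
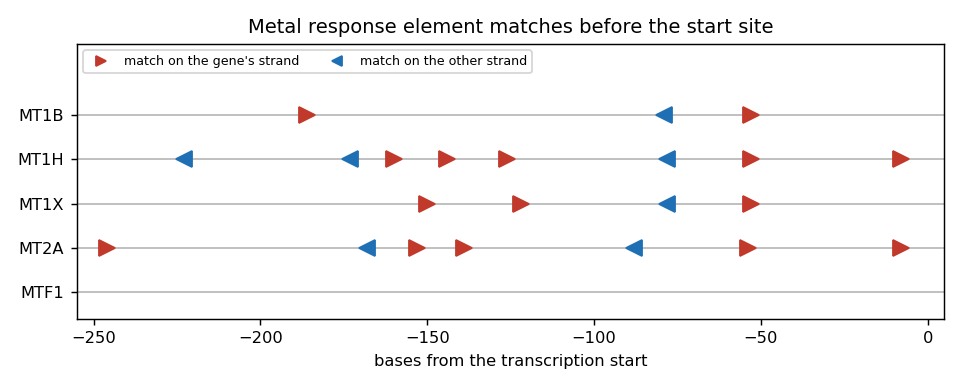
Positions of metal response element matches in the 250 bases before the transcription start of the 5 members with a promoter entry, by bases from the start and by strand. MT1B, MT1H, MT1X and MT2A each have a match near 53 bases before the start, and MTF1 has 0 matches.

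Genes that work beside metallothioneins in metal handling were counted from lists. Zinc importers of the SLC39 family, which bring zinc into the cytosol, were measured for 11 of 14 genes, and none passed 1.5-fold. Their median log2 ratio was 0.00. SLC39A8 was the highest at 0.43, with 0.15 on array 1 and 0.71 on array 2, and SLC39A4 followed at 0.30. SLC39A14 was the lowest at -0.37 and SLC39A13 was at -0.33, both below zero on each array.

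Zinc exporters of the SLC30 family, most of which move zinc out of the cytosol, were measured for 6 of 10 genes, and none passed 1.5-fold. Their median was -0.06. SLC30A5, which carries zinc into the secretory pathway, was the lowest with log2 ratios of -0.66 and -0.42. SLC30A1, the plasma membrane exporter and an MTF1 target, had a mean of -0.22. SLC30A9 was the highest at 0.40, with arrays at 0.64 and 0.17, followed by SLC30A2 at 0.16.

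Of 8 other genes known as MTF1 targets, 7 were measured and NDRG1 passed 1.5-fold, with log2 ratios of -0.66 and -0.90 and a mean of -0.78, or -0.52 and within 1.5-fold with median centring. NDRG1 is also a hypoxia-responsive gene. The median of the list was -0.15, and its highest gene was CSRP1 at 0.25, followed by SELENOH at 0.00. SLC30A1 and SLC39A10 of this list were also counted among the zinc exporters and importers. The list was not split by the direction in which MTF1 acts on each gene.

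Copper handling genes were measured for all 13 listed, with a median of 0.08. The copper exporter ATP7B was past 1.5-fold lower, with a log2 ratio of -0.56 on array 1 and -0.88 on array 2 and a mean of -0.72. It fell short of 1.5-fold on array 1 alone. The related exporter ATP7A had a mean of 0.08 at its brightest probe and of -0.26 at its other measured probe. The copper chaperone ATOX1 was the highest at 0.32 and the ferroxidase CP followed at 0.28, and the other low gene, COX17, was at -0.11.

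Iron handling genes were measured for 18 of 19, with a median of 0.08. HMOX1, which breaks down heme and is induced by metals and oxidants, had log2 ratios of -0.83 and -0.87 and was 1.80-fold lower in ALDH+ cells. The mitochondrial iron importer SLC25A37 had ratios of -0.82 and -0.42, with a mean of -0.62 that did not pass 1.5-fold on array 2 alone, without background correction, with median centring or as a mean over its probes. FTL, the ferritin light chain, was the highest of the list at 0.49, and TFRC, the transferrin receptor, followed at 0.24.

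Among 10 genes that metals and oxidants induce, 9 were measured, and they went both ways. DNAJB1, a heat shock cochaperone, had log2 ratios of 0.82 and 0.68, and BAG3 followed with a mean of 0.41. HMOX1, SRXN1 and GCLM were past 1.5-fold lower. SRXN1, which repairs peroxiredoxins, had ratios of -0.67 and -0.59, and was within 1.5-fold with median centring. GCLM, the modifier subunit of the enzyme that limits glutathione synthesis, had ratios of -0.58 and -0.64, and was within 1.5-fold on array 1 alone and with median centring. The list median was 0.19 for the mean of both arrays, but 0.11 on array 1 alone and 0.05 on array 2 alone.

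Glucocorticoids are another inducer of metallothioneins, and of the genes listed as responsive to them 8 of 10 were measured with a median of 0.04. DUSP1, a phosphatase that is also an immediate early gene, was the highest with log2 ratios of 0.99 and 0.87, which is 1.91-fold higher in ALDH+ cells. TSC22D3 followed at 0.44, SGK1 was the lowest at -0.36 and FKBP5 was at -0.18.

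Genes that flank the metallothionein cluster on chromosome 16 were measured for 8 of 10, and none passed 1.5-fold. Their median log2 ratio was -0.01. HERPUD1 was the lowest at -0.44 and BBS2 was at -0.21, while NUP93 was the highest at 0.18.

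**Figure D4:**
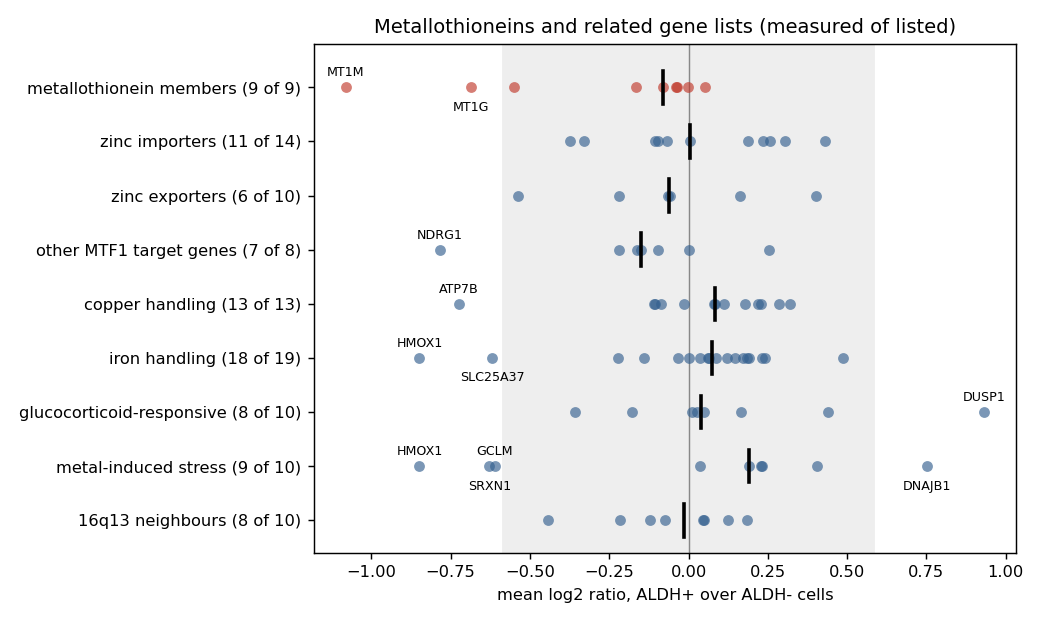
Mean log2 ratio of ALDH+ over ALDH- cells for each measured gene of the metallothionein list and 8 related lists, with the list median as a black bar and a gray band for less than 1.5-fold. Every list median lies inside the band, and genes outside it are named.

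The way the ratio was made mattered most for the dimmest and the brightest members. For MT1M the mean log2 ratio was between -0.98 and -1.19 over all settings, counting each array alone with loess and the mean of both arrays otherwise, and it was inside 2-fold only at -0.98, with median centring. For MT1F it was between -0.27 and -0.68. With median centring, the 9 metallothioneins had a median of 1.14 on array 1 and -0.69 on array 2, where all measured genes had 0.56 and -0.44, and MT1F was at 0.70 on array 1 and at -1.23 on array 2. MT1M was then at -0.37 on array 1, inside 1.5-fold, and at -1.58 on array 2. MTF1 was likewise inside 1.5-fold on array 1, at -0.06, and was at -1.2 on array 2.

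**Figure D5:**
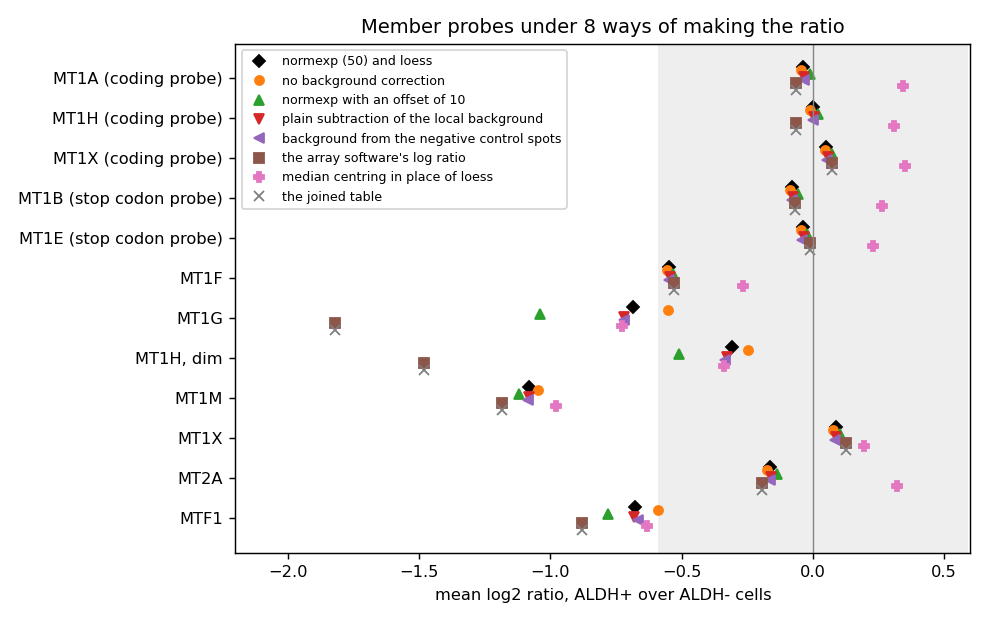
Mean log2 ratio of each member probe over both arrays under 8 ways of correcting background and normalizing, with a gray band for less than 1.5-fold. MT1M lies between -0.98 and -1.19 and MTF1 between -0.59 and -0.88, MT1G reaches -1.82 with the array software's ratio, and median centring moves the bright coding probes above 0.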

How the data were processed

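The authors deposited, for each array, the unnormalized intensity and local background of every spot, the array software's log10 ratio and its flags. Per the file headers the software was Agilent Feature Extraction 10.7.3.1, while the submitters' processing notes name 8.5.1.1. A joined table deposited by the authors repeats the log10 ratios, which differed by more than 0.001 at 0 of 44495 spots compared. Its 4 signal columns were not used.

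Background was corrected by normexp (offset 50), and loess was then run on each array (limma 3.58.1, R 4.3.3). Control spots and outlier spots (531 and 519) were left out. Ratios were turned to ALDH+ over ALDH- cells and averaged over both arrays. Levels of each population are log2 intensities after limma's Aquantile step on top of loess. A probe was detected when the software put over 0.5 of its spots well above background. It was measured when detected on both arrays in at least 1 population, and a gene took its brightest measured probe. Tables and plots were made in Python 3.11.15 (pandas 2.3.3, numpy 2.4.6, matplotlib 3.10.9). Names came from RefSeq for 25422 probes, otherwise from the array. Steps were tested on simulated data. With 1 extract per population no test was made, and the number of arrays limits the precision.

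The text names every member, family genes outside the list, and of each list up to 2 highest and 2 lowest genes and any past 1.5-fold, except 1 gene that is not reported here. Members and lists were chosen with earlier results of these data known. Alternatives covered background, normalization, filters, probe rules, each array alone and a 2-fold threshold.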

Additional observations from a re-analysis of the deposited data

How the results depend on the processing

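No paired analysis was possible because each population had a single extract and nothing was tested. The median log2 ratio of the metallothioneins was 0.26 with median centring against -0.08 as reported, and between -0.16 and -0.03 with each array alone. The count of metallothioneins past 1.5-fold was 1 without background correction, 1 when detection was required in both populations, which drops MT1G, and 1 at 2-fold, against 2 as reported, and was 3 on array 2 alone, where MT1F passed, and 2 on array 1 alone. MTF1 was at -0.88 in the array software's ratio and in the joined table, against -0.68, and between -0.80 and -0.56 with each array alone. The zinc importer median was 0.068 with median centring and between 0.022 and 0.11 with each array alone, against 0.00, and the zinc exporter median was -0.16 in the array software's ratio and in the joined table, against -0.06. The copper handling median was 0.19 with median centring, against 0.08. The cause of these shifts was not tested. The iron handling median moved by less than the spread of the arrays under every alternative run. Of 1198 values of single genes under the alternatives, 115 moved by more than the technical SD and 0 reversed a difference past 1.5-fold. The count of moved values is no measure of robustness. Each array alone could not count as moved for a single gene, since it always lies closer to the mean of both arrays than their SD. The joined table repeats the array software's ratio, and changes of filter or probe rule often keep the same probe. Signal close to background limits MT1G and the second MT1H probe. Shared sequence limits the coding and stop codon probes, the MT1F probe and the second MT1X probe. The use of 1 extract of each population limits every value.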
